A study of Mus musculus with 24 samples.

Results

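Gli1, Ptch1 and Hhip are the Hedgehog pathway genes examined here, 3 of the 30743 genes that the array named through a probe set of a single gene. They were chosen by symbol: every probe set annotated to exactly these symbols was taken, and each symbol had 1 probe set, so no choice between probe sets was needed. Their levels were followed over 24 arrays of colon fibroblasts from 3 mouse genotypes. The cells had been sorted by flow cytometry as negative for Epcam, CD45 and CD31 and positive for gp38, the protein of Pdpn, and 2 ng of RNA per sample was amplified and hybridised to an Affymetrix Mouse Transcriptome Array 1.0.

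All mice carried Villincre-ERT2, a Cre recombinase that is switched on by induction and driven by the promoter of the epithelial gene Villin, and the ZsGreen reporter. Wild-type mice (WT, 7 arrays) were labelled IhhWT-ApcWT, the Apc-deleted mice (ApcKO, 8 arrays) IhhWT-ApcKO, and the mice lacking both genes (IhhKO_ApcKO, 9 arrays) IhhKO-ApcKO. No group lacked Ihh alone, so the effect of Ihh was read in Apc-deleted mice. Cre acts in the epithelium, against which the cells were sorted, so the level of Ihh or Apc on these arrays does not check the deletion. The labels do not say whether each array came from a separate mouse, and p-values measure the spread between arrays, which may be partly technical. Age, sex and the timing of induction were not given in the sources used here. Each array had a sample code, a letter and a digit, and arrays are named by it below.

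Hedgehog ligands are secreted proteins. In the colon, Indian hedgehog (Ihh) is made by the epithelium and received by the mesenchyme below it. The ligand binds the receptor Patched (Ptch1), which otherwise holds the transducer Smoothened (Smo) inactive; Smo then signals through the primary cilium to the Gli transcription factors. Gli1 is a transcriptional activator whose own gene is switched on by the pathway. Ptch1 is at once a receptor and a target that limits the signal, and Hhip is a membrane protein that binds and sequesters Hedgehog ligands. Because the pathway drives all of these genes, their transcripts are widely used as a readout of Hedgehog reception.

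In GRCm38.p6, the RefSeq annotation places Gli1 (Entrez 14632) at chr10:127329882-127341579, Ptch1 (Entrez 19206) at chr13:63508328-63573460 and Hhip (Entrez 15245) at chr8:79965850-80058060. The bases just upstream of an annotated transcript start are shown for Ptch1 and Hhip, which varied together within IhhKO_ApcKO; they come from RefSeq, and 2 of the 3 genes had an entry. The start used lies 7725 bases inside the outer 5′ end of the Ptch1 gene and 52 bases inside that of Hhip, so each window precedes the start of a single transcript, and that of Ptch1 lies wholly within the gene. Each run is 250 bases, 5′ to 3′ on the minus strand of the genome, on which both genes are transcribed, and ends at the base before that start. Both strands were searched for the Gli consensus GACCACCCA and for its core CCACCC, which lies within it; capitals mark a match.
Ptch1, chr13:63565736-63565985: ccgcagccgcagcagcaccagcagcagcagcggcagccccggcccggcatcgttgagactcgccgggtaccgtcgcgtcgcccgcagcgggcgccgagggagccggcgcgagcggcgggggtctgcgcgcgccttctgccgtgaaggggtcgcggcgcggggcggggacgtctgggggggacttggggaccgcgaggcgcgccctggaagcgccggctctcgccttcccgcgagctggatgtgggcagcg
Hhip, chr8:80058009-80058258: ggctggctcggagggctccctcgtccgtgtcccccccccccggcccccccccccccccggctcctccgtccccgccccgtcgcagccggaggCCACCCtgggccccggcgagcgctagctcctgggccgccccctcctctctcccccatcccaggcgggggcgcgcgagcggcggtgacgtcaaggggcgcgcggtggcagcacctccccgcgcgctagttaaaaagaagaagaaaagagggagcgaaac
The Ptch1 window held neither string and had a GC content of 78.4%. The Hhip window had a GC content of 76.0%, against a median of 52.4% over all 32851 promoter windows of that length, and held the core once, 153 to 158 bases before the start. The core was found in 28.08% of all windows and the full consensus in 0.23%. A match is a description of letters, not of a bound site.

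Defining markers of fibroblasts were high on every array. The mean of 9 measured fibroblast markers, among them Pdpn and Col1a1, ranged from 10.49 to 11.05 over the 24 arrays. Leukocyte markers stayed between 5.35 and 5.70 and endothelial markers between 5.20 and 5.99. Pericyte markers ranged from 6.23 to 6.66, markers of interstitial cells of Cajal from 5.49 to 6.68 and mesothelial markers from 5.23 to 6.36. The median of all gene means was 5.6. Epithelial markers varied widely, from 5.08 to 7.88, with group means of 6.49 in WT, 7.03 in ApcKO and 6.67 in IhhKO_ApcKO, and the groups overlapped; with their mean as a covariate no call of Gli1, Ptch1 or Hhip changed. All levels are log2 values normalised by RMA, in which a difference of 1 is a doubling. In bulk samples, fewer cells of a type and less RNA per cell cannot be told apart.

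Array B9 stood apart from its group. The array labelled IhhKO_ApcKO B9 had levels of all 3 genes inside the range of the Ihh-intact arrays. Levels, differences from ApcKO and correlations between the 3 genes within IhhKO_ApcKO are therefore given with and without it. Fits with a block or a covariate, and relations to marker means, include B9. B9 was also the only IhhKO_ApcKO array with the code letter B; all other arrays of that genotype had the letter C, which no other genotype had. ApcKO arrays had the letter B except A9, and WT arrays the letter A. What the letter stands for is not given, and apart from B9 and A9 letter and genotype cannot be told apart.

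Gli1 was measured at a narrow level in WT and ApcKO fibroblasts and was far lower in IhhKO_ApcKO. In WT the 7 arrays ran from 7.98 to 8.20, with a median of 8.08 and a mean of 8.09 ± 0.08 (SD, n = 7). In ApcKO they ran from 8.03 to 8.47, with a median of 8.24 and a mean of 8.22 ± 0.14 (SD, n = 8). The IhhKO_ApcKO arrays C1, C2, C3, C4, C5, C6, C7 and C9 read 6.67, 6.87, 6.84, 6.79, 6.64, 6.65, 7.05 and 6.76, and B9 read 7.99. Thus 8 arrays lay at least 0.93 below the lowest Ihh-intact array, while B9 exceeded WT A1 alone. The group mean was 6.92 ± 0.42 (SD, n = 9), and 6.78 ± 0.14 (SD, n = 8) without B9.

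Ptch1, the ligand receptor and pathway brake, had the same order with a wider spread. In WT its level ran from 9.32 to 9.84 around a median of 9.63, with a mean of 9.60 ± 0.19 (SD, n = 7). In ApcKO it ran from 9.05 to 10.05 around 9.77, with a mean of 9.64 ± 0.33 (SD, n = 8). The IhhKO_ApcKO arrays C1 to C5 read 8.34, 8.18, 8.40, 8.49 and 8.52, the arrays C6, C7 and C9 read 7.88, 7.92 and 7.67, and B9 read 9.53. Again 8 of 9 lay below every Ihh-intact array, by at least 0.52, with C6, C7 and C9 the lowest; B9 exceeded 6 of the 15 Ihh-intact arrays. The mean was 8.33 ± 0.54 (SD, n = 9), and 8.18 ± 0.32 (SD, n = 8) without B9.

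Hhip, the ligand-sequestering inhibitor, varied most among Ihh-intact arrays. Its level in WT ran from 8.68 to 9.76 around a median of 9.04, with a mean of 9.05 ± 0.38 (SD, n = 7). In ApcKO it ran from 8.68 to 9.93 around 9.42, with a mean of 9.30 ± 0.46 (SD, n = 8). The IhhKO_ApcKO arrays C1 to C5 read 8.13, 7.71, 8.05, 8.04 and 8.14, the arrays C6, C7 and C9 read 7.33, 7.42 and 7.41, and B9 read 8.96. The 8 arrays other than B9 lay at least 0.54 below every Ihh-intact array, and the same arrays C6, C7 and C9 were lowest. The mean was 7.91 ± 0.52 (SD, n = 9), and 7.78 ± 0.35 (SD, n = 8) without B9. Having at least 8 of 9 IhhKO_ApcKO arrays below all 15 Ihh-intact arrays was met by all 3 genes and by 0.0553% of all genes (17 of 30743).

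**Figure D1:**
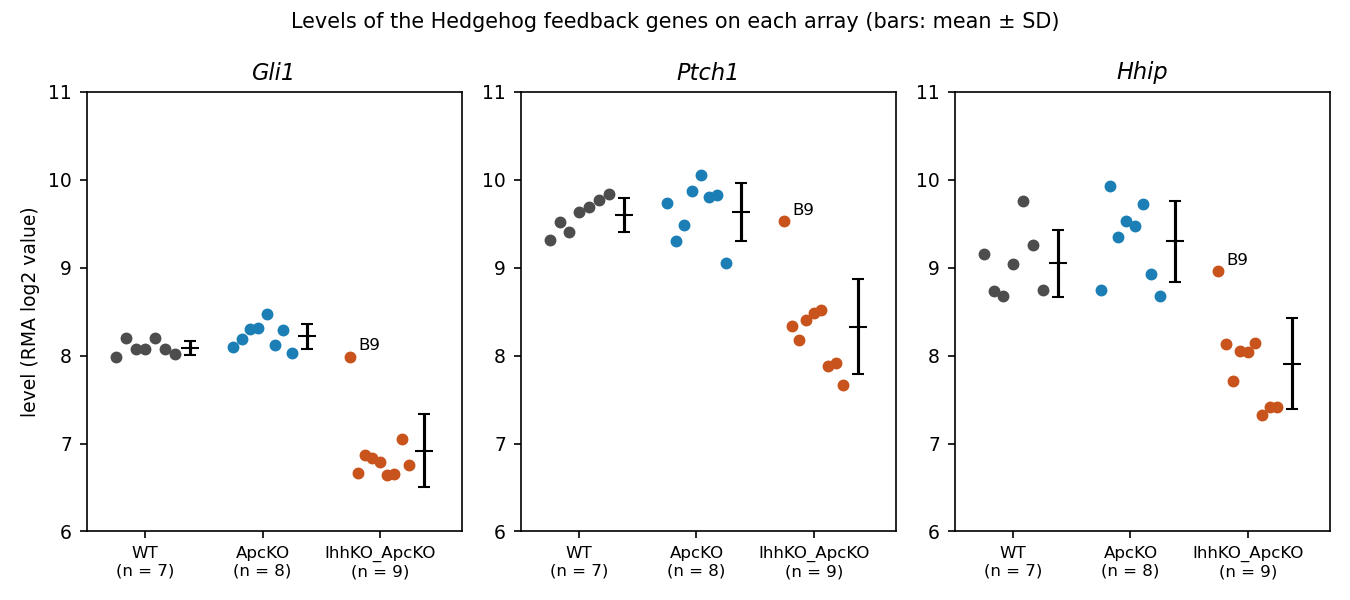
Levels of Gli1, Ptch1 and Hhip (RMA log2 value, vertical axis) on each array, by genotype; points are arrays in order of their sample code, and the bar beside each group is the mean ± SD. The IhhKO_ApcKO points lie below all others except B9, which sits at 7.99, 9.53 and 8.96.

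Deletion of Apc with Ihh intact was the first comparison. None of the 3 genes passed the test. Gli1 was 0.14 higher in ApcKO than in WT (95% interval -0.14 to 0.41; adjusted p = 0.97 by limma, Benjamini-Hochberg over all genes), Ptch1 was 0.04 higher (-0.35 to 0.44; adjusted p = 0.99 by limma) and Hhip was 0.24 higher (-0.21 to 0.70; adjusted p = 0.97 by limma). The intervals leave room for a rise of Gli1 or Ptch1 of up to about 0.4 and of Hhip of up to 0.70. In Gli1, 4 of 8 ApcKO arrays exceeded every WT array, which was also so for 3.73% of all genes. In this comparison 0 genes (0% of 30743) passed an adjusted p of 0.05 in limma, with 1356 at an unadjusted p under 0.05.

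All 3 genes were lower where Ihh was deleted as well. Against ApcKO, Gli1 fell 2.47-fold (log2 difference -1.31, SE 0.13, 95% interval -1.57 to -1.05; limma adjusted p = 4.01e-06), and all 9 of 9 IhhKO_ApcKO arrays lay below every ApcKO array, as in 0.013% of all genes. Ptch1 fell 2.49-fold (-1.32, SE 0.18, -1.68 to -0.95; limma adjusted p = 0.00138). Hhip fell 2.62-fold (-1.39, SE 0.21, -1.81 to -0.96; limma adjusted p = 0.00457). For Ptch1 and Hhip 8 of 9 arrays lay below every ApcKO array, which at least 8 arrays did in 0.124% of all genes. The 3 genes held the 3 smallest p-values of all 30743 genes, and 0.0423% of genes (13) passed as lower, with 1 higher. By size of the decrease Hhip ranked 2, Ptch1 ranked 3 and Gli1 ranked 5.

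Without B9 the differences from ApcKO were -1.44 for Gli1, -1.47 for Ptch1 and -1.52 for Hhip, and the standard error of Gli1 shrank to 0.064. The limma adjusted p-values were then 2.43e-13, 1.27e-06 and 0.000129, and 41 genes passed in place of 14. With the code letter as a random block, Gli1 passed (-1.15; limma adjusted p = 0.00079) but Ptch1 (-1.15; 0.15) and Hhip (-1.21; 0.324) did not. With the letter as a fixed term, where the difference from ApcKO is that of B9 from the ApcKO arrays of letter B, the values were -0.25, -0.10 and -0.41 and none passed.

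Against WT the decreases were similar in size, but Hhip was close to the threshold. Gli1 was 2.25-fold lower (-1.17, SE 0.13; limma adjusted p = 7.5e-05), Ptch1 2.41-fold lower (-1.27, SE 0.18; 0.00314) and Hhip 2.21-fold lower (-1.15, SE 0.21; 0.0298), and 0.0716% of all genes passed as lower. Hhip did not pass in 9 of the 16 fits that left out an array, namely WT A1, A4, A5 or A6 or IhhKO_ApcKO C2, C4, C6, C7 or C9, where its adjusted p was 0.0507 to 0.0778; without B9 it was 0.00265. With the code letter as a random block neither Ptch1 (-1.17; limma adjusted p = 0.204) nor Hhip (-1.12; 0.671) passed against WT, and with the code digit as a block Hhip did not (0.0691). Against the mean of both Ihh-intact groups, the values were -1.24 (SE 0.11; limma adjusted p = 6.32e-07) for Gli1, -1.29 (SE 0.15; 0.000145) for Ptch1 and -1.27 (SE 0.18; 0.000994) for Hhip, and 0.192% of genes passed as lower; with the letter as a random block Hhip did not pass there (0.0944). The comparisons with ApcKO, with WT and with their mean share the IhhKO_ApcKO arrays and are not independent of each other.

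**Figure D2:**
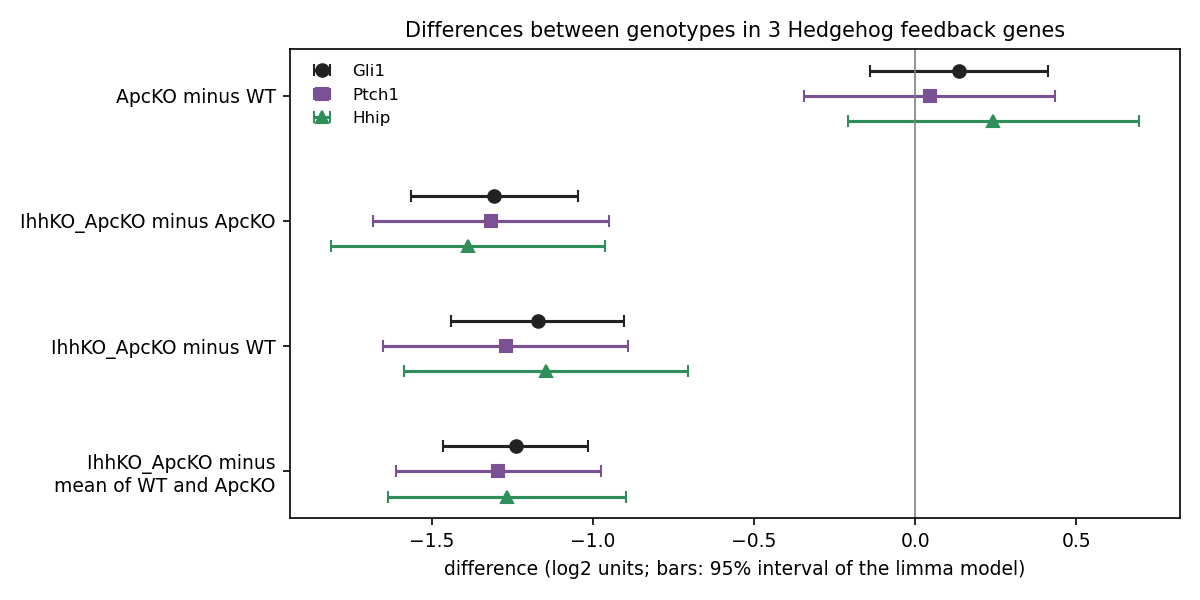
Differences between genotypes for Gli1 (circles), Ptch1 (squares) and Hhip (triangles) in log2 units on the horizontal axis, with the 95% interval of the limma model over 24 arrays. Intervals for ApcKO minus WT cross 0, while those for the 3 comparisons of IhhKO_ApcKO lie below 0, with estimates from -1.39 to -1.15.

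Whether the genes fell by different amounts was tested on the log2 ratio of each pair within an array, with exact two-sided permutation tests adjusted over 9 comparisons. None passed (adjusted p of 0.925 or above), and the largest difference of a ratio was -0.20, for Ptch1 over Hhip between ApcKO and WT. Between IhhKO_ApcKO and ApcKO, the ratio of Gli1 to Ptch1 differed by 0.01, with a 95% permutation interval from -0.32 to 0.33. That of Gli1 to Hhip differed by 0.08 (-0.34 to 0.51) and that of Ptch1 to Hhip by 0.07 (-0.28 to 0.45). The intervals allow unequal decreases of up to about 0.5. The Ptch1 to Hhip ratio itself was tight in IhhKO_ApcKO, at 0.42 ± 0.13 (SD, n = 9), against 0.34 ± 0.51 in ApcKO (SD, n = 8) and 0.54 ± 0.39 in WT (SD, n = 7); the difference in spread was not tested.

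Within the genotypes the genes did not all vary together. In IhhKO_ApcKO, Ptch1 and Hhip rose and fell together over the arrays, with Pearson's r = 0.97 (exact permutation p = 0.000245, adjusted over 12 relations 0.00294; Spearman's rho = 0.92, exact adjusted p = 0.0157; n = 9). Without B9, r was 0.94 (exact permutation p = 0.00221, n = 8), with C6, C7 and C9 at the low end and C1, C3, C4 and C5 at the high end of both genes. The epithelial marker mean was highest of this genotype on C6, C7 and C9 (7.30, 7.45 and 7.88), and it was 7.28 on B9. Given that mean as a covariate, r was 0.97 with B9 included (n = 9). The relation given the epithelial markers was not tested without B9. Without the arrays farthest from the Ptch1 median, B9 and C9, r was 0.96 (exact p = 0.00496, n = 7), but the adjusted p was 0.0595. The same pair had r = 0.21 in WT (exact p = 0.658, n = 7) and r = 0.20 in ApcKO (exact p = 0.631, n = 8); whether r differed between genotypes was not tested.

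Gli1 did not follow the other genes in IhhKO_ApcKO once B9 was left out. Its r with Ptch1 was 0.76 (exact p = 0.0784, n = 9; rho = 0.17) with B9 and -0.22 (exact p = 0.604, n = 8) without it. With Hhip, its r was 0.67 (exact p = 0.0848, n = 9; rho = 0.13) and -0.31 without B9 (exact p = 0.471, n = 8). Both positive values thus rested on B9. The highest of the remaining Gli1 values, 7.05, was on C7, an array with low Ptch1 and Hhip. In ApcKO, Gli1 and Ptch1 had r = 0.66 (exact p = 0.0798, adjusted 0.145; n = 8), which fell to 0.04 without B4 and B8. In WT the r of Gli1 was 0.15 with Ptch1 and 0.26 with Hhip, over Gli1 values that differed by 0.22 in all.

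When the genotype mean was taken off and all 24 arrays were pooled, Ptch1 with Hhip gave r = 0.64 (permutation within genotypes, adjusted p = 0.0201; rho = 0.54, adjusted p = 0.0679). Without B9 and C9 r was 0.40 and did not pass (adjusted p = 0.433). Gli1 gave r = 0.70 with Ptch1 (permutation adjusted p = 0.0806) and 0.51 with Hhip (0.113), and without B9 these were 0.22 and 0.10.

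**Figure D3:**
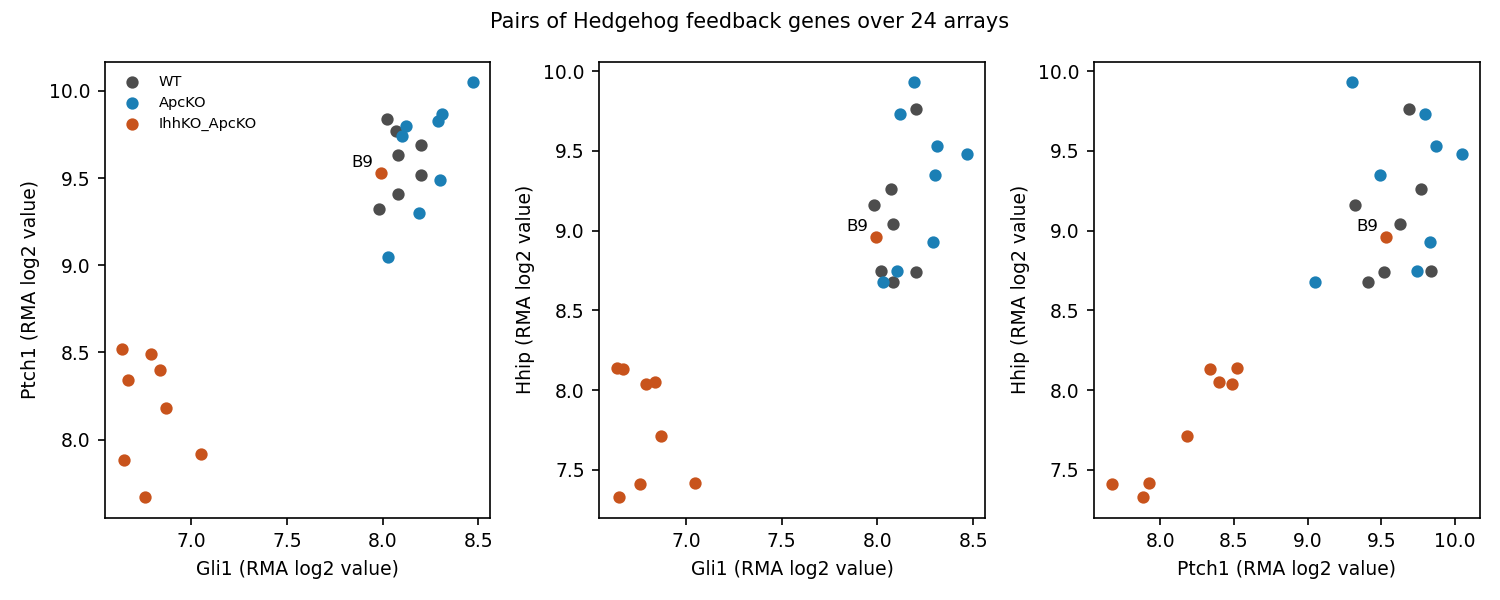
Each pair of Gli1, Ptch1 and Hhip over 24 arrays (RMA log2 values on both axes), coloured by genotype. In the Ptch1 and Hhip panel the IhhKO_ApcKO arrays form a line (r = 0.97), whereas in both Gli1 panels the 8 arrays other than B9 show no rise (r = -0.22 and -0.31).

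Other pathway genes moved far less. Of 3 ligand genes, 7 receptors, co-receptors and release factors, 10 Gli mediators and their regulators, 8 primary cilium genes and 13 further targets of gut mesenchyme, 0 passed in limma in ApcKO against WT, in IhhKO_ApcKO against ApcKO or in IhhKO_ApcKO against WT. The median difference from ApcKO was 0.04 for the ligands, -0.16 for the receptor group, -0.06 for the Gli mediators, -0.05 for the cilium genes and -0.08 for the further targets, against 0.01 over all genes. In the same order of lists, 0 of 3, 5 of 7, 7 of 10, 7 of 8 and 12 of 13 differences from ApcKO were negative, against 43.4% over all genes. Of all 30743 genes, 0 passed in ApcKO against WT, 14 in IhhKO_ApcKO against ApcKO and 25 in IhhKO_ApcKO against WT. At such shares a count of 0 is likely for any lists of this size. Arl13b and Ccnd1 had no probe set of a single gene and were not analysed here.

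Ligand and transducer genes gave small differences between IhhKO_ApcKO and ApcKO. Ihh was measured in cells sorted against the epithelium that makes the ligand, though epithelial markers varied widely on these arrays. Its level was 6.40 ± 0.13 in WT (SD, n = 7), 6.33 ± 0.14 in ApcKO (SD, n = 8) and 6.36 ± 0.13 in IhhKO_ApcKO (SD, n = 9). Smo, the transducer, differed by -0.11 (SE 0.06), Gli3, mainly a repressor, by -0.14 (SE 0.07) and Gli2, the main activator of target genes, by -0.22 (SE 0.06; limma adjusted p = 0.367). Foxf1, a mesenchymal forkhead factor, differed by -0.12 (SE 0.06) and Bmp4, a secreted growth factor, by -0.01 (SE 0.12). None of these passed.

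Against the mean of both Ihh-intact groups, 2 of the 13 further targets fell, where 0.192% of all genes passed as lower. Foxl1, a forkhead factor of the fibroblasts beneath the epithelium, had means of 6.69, 6.73 and 6.36 in WT, ApcKO and IhhKO_ApcKO, a difference of -0.35 (SE 0.06; limma adjusted p = 0.0117). Myocd, a coactivator of smooth muscle genes, had means of 6.52, 6.62 and 6.04, a difference of -0.53 (SE 0.10; 0.0187). Against ApcKO alone, Foxl1 (-0.37, adjusted p = 0.0508) and Myocd (-0.58, 0.0615) missed the threshold, and without B9 both passed (0.0251 and 0.0142). Without B9, the co-receptor Cdon also passed against the mean of both groups (-0.37; limma adjusted p = 0.0493). Of 13 alternatives other than leaving out an array, the call against the mean was lost in 4 for Foxl1 and 6 for Myocd. Both were lost with the code letter as a random block (limma adjusted p = 0.424 and 0.591) or as a fixed term. Both were also lost with smooth muscle (0.43 and 0.631) or fibroblast markers (0.0764 and 0.144) as a covariate, and Myocd with centred arrays (0.066) and the digit block (0.0669). Myocd is itself among the smooth muscle markers, so the loss of its call with that covariate is no separate check.

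**Figure D4:**
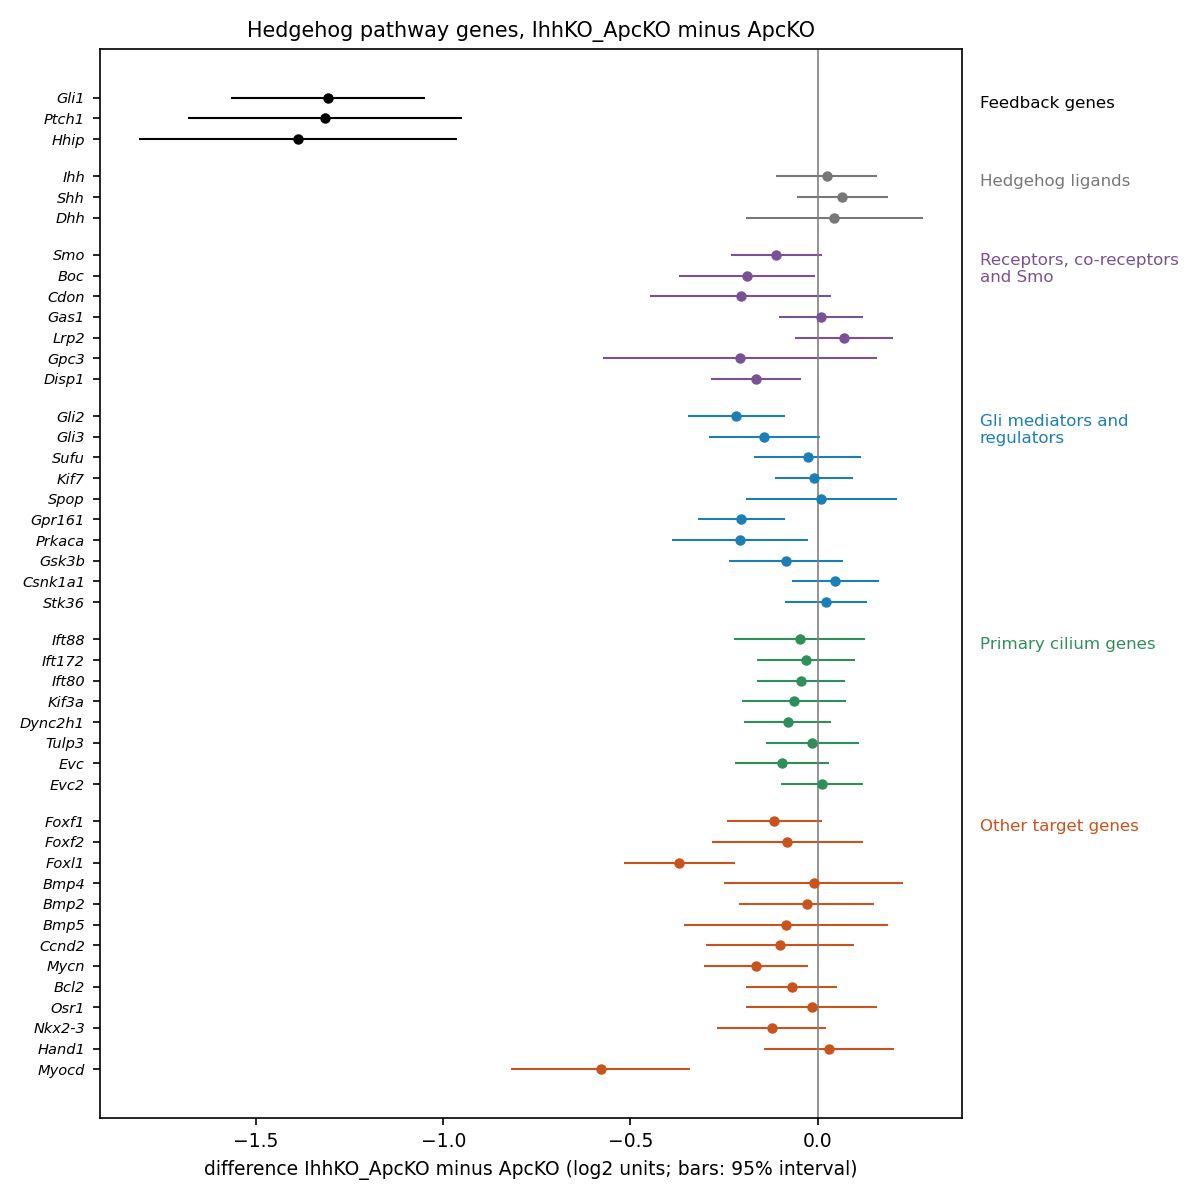
Difference IhhKO_ApcKO minus ApcKO for each measured Hedgehog pathway gene (log2 units, points) with its 95% interval in the limma model, grouped by role. The feedback genes lie at -1.31 to -1.39, and the next lowest are Myocd at -0.58 and Foxl1 at -0.37.

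None of the smooth muscle markers passed between IhhKO_ApcKO and ApcKO. All 7 of 7 differences, that of Myocd among them, were negative (median -0.40), as were 43.4% of those of all genes (median 0.01). Their mean ranged from 7.52 to 8.19 in WT, from 7.66 to 8.10 in ApcKO and from 7.09 to 7.89 in IhhKO_ApcKO, where B9 was highest and C7 and C9 lowest. With this mean as a covariate, chosen after seeing the data, Gli1 still passed against ApcKO (-1.15; limma adjusted p = 0.00374), while Ptch1 (-0.94; 0.287) and Hhip (-0.83; 0.711) were smaller and did not. Within IhhKO_ApcKO the marker mean had r = 0.76 with Ptch1 and 0.74 with Hhip (exact permutation p = 0.0133 and 0.0214, adjusted over 18 relations 0.135 for both, n = 9). By rank the relations were weaker, with rho = 0.53 and 0.50 (exact permutation p = 0.148 and 0.178). The 18 relations set each gene in each genotype against smooth muscle or epithelial markers, and none passed. The smallest p was that of Gli1 with epithelial markers in ApcKO (rho = -0.90, exact permutation p = 0.00456, adjusted 0.0821, n = 8).

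The genes whose level was most like the mean of Gli1, Ptch1 and Hhip over all 24 arrays were Lepr, the leptin receptor (r = 0.94), Fancc, a DNA repair protein of the Fanconi anaemia group (0.92), Pltp, a phospholipid transfer protein (0.92), and Eml1, a microtubule-associated protein (0.91). The adhesion molecule Ncam1 (0.88), the glutamate receptor subunit Gria4 (0.86), Thsd4 (0.86) and the receptor phosphatase Ptprd (0.86) followed. Only those first 4 of 30740 genes reached 0.9, and the genotype difference is part of each value. The most opposite were the matrix protein Mgp (-0.87), the nucleoside diphosphate kinase Nme1 (-0.79), Zkscan6 (-0.75) and the proteoglycan Sdc1 (-0.75). Without B9, 7 of the 8 most alike were again among the first 8, and by Spearman's rho 5 of 8.

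Lepr had the larger swing. Its means were 8.97 ± 0.35 in WT (SD, n = 7), 9.06 ± 0.42 in ApcKO (SD, n = 8) and 7.63 ± 0.66 in IhhKO_ApcKO (SD, n = 9), and on B9 it read 8.82. It fell by 1.44 against ApcKO (SE 0.23; limma adjusted p = 0.00567), a call that did not hold with the code letter as a random block (0.425) or with the smooth muscle marker mean as a covariate (0.887). Its lowest levels were 6.74 on C6, 6.82 on C7 and 7.30 on C9, the arrays on which Ptch1 and Hhip were also lowest. Pltp had means of 9.61, 9.50 and 8.97, and Eml1 of 7.96, 8.02 and 7.71. Mgp ran the other way, with means of 11.68, 11.69 and 12.04 and 11.61 on B9.

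After the genotype mean was taken off, the most alike were Cped1 (r = 0.83), Lepr (0.81), Tbc1d4 (0.80), Fancc, Procr, Adamdec1 and Bbs12 (all 0.77) and Dpep2 (0.76). The order changed without B9, when 0 of the 8 were again among the first 8. The r then was 0.82 for Cped1, 0.74 for Lepr and Tbc1d4, 0.67 for Adamdec1, 0.62 for Dpep2, 0.54 for Bbs12, 0.50 for Fancc and 0.39 for Procr.

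**Figure D5:**
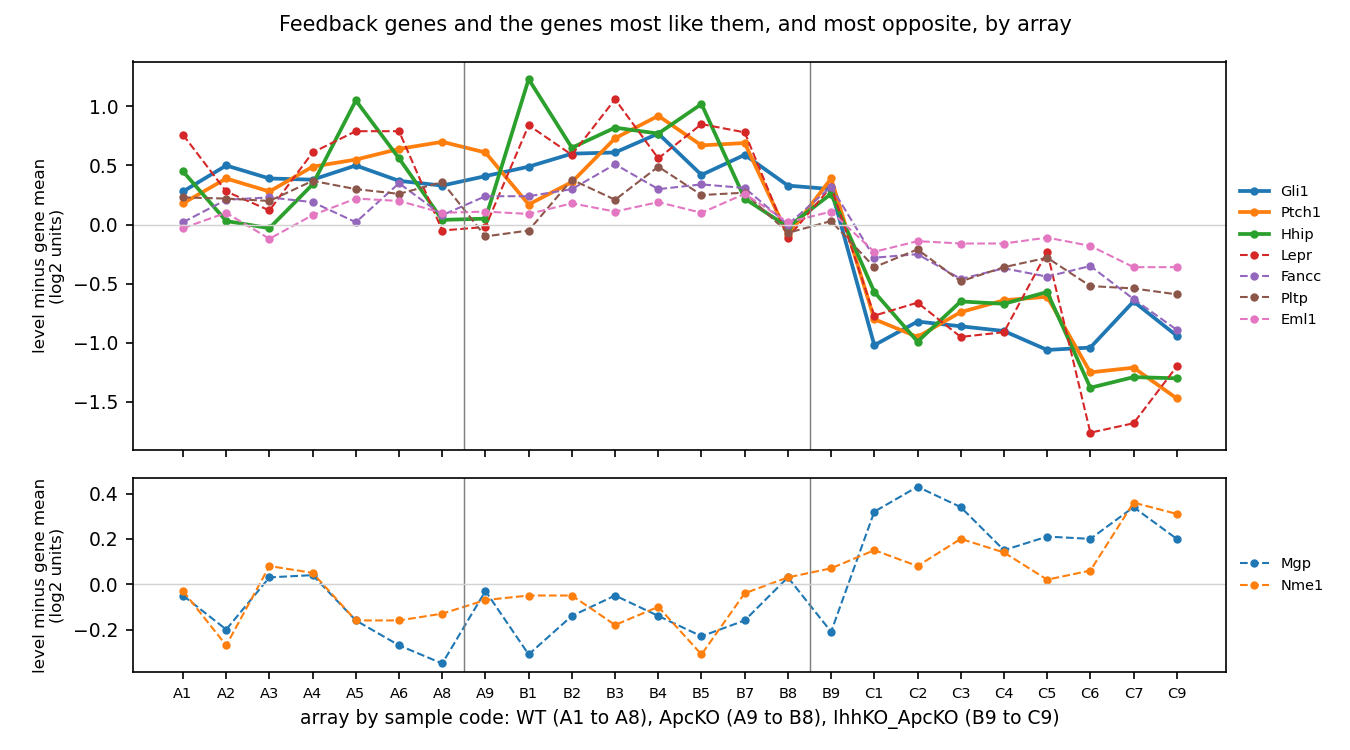
Levels on each array minus the gene's mean over 24 arrays (log2 units, vertical axis), arrays ordered by genotype and sample code. Upper panel, Gli1, Ptch1 and Hhip (solid) with the 4 genes most like them (dashed); lower panel, Mgp and Nme1, the most opposite; vertical lines part the genotypes, and B9 is the first array of the last block. Lines join a gene's points to guide the eye; the arrays of a genotype have no order. All 7 genes of the upper panel lie below 0 on all 8 arrays of letter C.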

How the data were processed

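Colon fibroblast RNA from 24 samples was hybridised to Affymetrix Mouse Transcriptome Array 1.0, 1 array per sample, in 3 genotypes of 7, 8 and 9 arrays. The authors deposited log2 values normalised by RMA, per the submitters' processing notes; its software and version were not given in the sources used here. The deposited table held 72688 rows, of which 65956 were transcript clusters; 31216 had 1 gene in the platform annotation, 1534 several and 33206 none, and 827 symbols were updated. Where a gene had several clusters, the brightest was kept, leaving 30743 genes. Array medians lay between 4.96 and 5.14, and 23 background probe sets had medians of 2.68 to 3.15 per array. No pair of arrays held identical values.

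A linear model over all 24 arrays (limma 3.58.1, its lmFit and eBayes functions, R 4.3.3) gave the differences, with Benjamini-Hochberg adjustment over 30743 genes and a threshold of 0.05, and the procedure was tested on simulated data. Fits with array weights, trend, other gene filters, marker or Xist covariates, code letter, code digit and single arrays left out were alternatives. Correlations and ratios between genes were tested by permutation, exact within groups, with 100000 permutations for the pooled deviations. The number of arrays limits the precision. The genes described, the pathway and marker lists and the tests were chosen with earlier results of these data known. Genes most like the 3 were the 8 with the highest and the 4 with the lowest Pearson's r with the mean of their centred levels, and the 8 highest for deviations from genotype means. Pathway genes were named where they passed in any comparison or were defining genes (Ihh, Smo, Gli2, Gli3, Foxf1, Foxl1, Bmp4).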

Additional observations from a re-analysis of the deposited data

Results flagged for a closer look

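In IhhKO_ApcKO the array B9 lay far from the other 8 arrays in all 3 genes. Its Gli1 level was 7.99, and the gap to the next array, C7 at 7.05, made up 0.699 of the group's range. Its Ptch1 level was 9.53 (0.540 of the range) and its Hhip level 8.96 (0.505), against Dixon's critical value of 0.493 for 9 arrays. In all, 18 sets of values drawn from the same arrays were tested this way and 3 were flagged. Chance flags about 1 in 20 independent sets, but all 3 flags were array B9 and are not independent of each other. On B9, Lepr (8.82) and Mgp (11.61) also read at the level of the Ihh-intact arrays, while Foxl1 (6.53) lay within the range of both WT and the other IhhKO_ApcKO arrays. Other genes, chosen after their values were seen, ran on B9 with its labelled genotype, but none of them parted that genotype fully from both others. Gli2 read 7.87 on B9, below all 15 Ihh-intact arrays, whose lowest was 7.98, while C2 (8.09) and C3 (8.07) lay within their range. Mmp10 lay above every ApcKO array on 9 of 9 IhhKO_ApcKO arrays. Its range there, 5.26 to 6.61, overlapped that of WT, which reached 6.06. Gm16907 lay below every WT array on 9 of 9, but its highest level there, 6.97, exceeded the lowest ApcKO array, 6.95. Its difference from ApcKO was -0.73 with B9 and -0.74 without it.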

How the results depend on the processing

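The decrease of Gli1, Ptch1 and Hhip in IhhKO_ApcKO against ApcKO, and against the mean of both Ihh-intact groups, kept its direction in every fit run. It kept its side of the threshold in each fit that left out an array (17 and 24 fits). In the fits that left out an array, the differences from ApcKO were -1.441 to -1.272 for Gli1, -1.466 to -1.233 for Ptch1 and -1.520 to -1.297 for Hhip. Those from the mean were -1.374 to -1.204, -1.444 to -1.211 and -1.399 to -1.194. Those from WT were -1.306 to -1.137, -1.421 to -1.188 and -1.277 to -1.028, where Hhip passed in 7 of 16 fits. For ApcKO minus WT, Gli1 ran from 0.101 to 0.163, Ptch1 from -0.014 to 0.130 (below 0, at -0.001 and -0.014, without A1 or B4) and Hhip from 0.152 to 0.360.

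The counts of genes that passed, when an array was left out, were 8 to 41 for IhhKO_ApcKO minus ApcKO, 12 to 67 for IhhKO_ApcKO minus WT, 43 to 119 for IhhKO_ApcKO minus the mean and 0 for ApcKO minus WT. The highest of each were reached without B9. With the code letter as a fixed term, the differences from ApcKO were -0.248, -0.100 and -0.411 for Gli1, Ptch1 and Hhip, those from WT -0.237, 0.044 and -0.714, and those from the mean -0.243, -0.028 and -0.563, Hhip in ApcKO minus WT was -0.303 and Fancc against ApcKO was 0.032; the counts were 51, 82 and 62, and 113 for ApcKO minus WT. With the letter as a random block (correlation 0.096), Ptch1 (-1.146) and Hhip (-1.211) did not pass against ApcKO, nor against WT (-1.166 and -1.121), nor did Hhip against the mean (-1.166), and Ptch1 in ApcKO minus WT was -0.020; the counts were 1, 1 and 3.

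With the smooth muscle marker mean as a covariate, Ptch1 (-0.941) and Hhip (-0.827) did not pass against ApcKO, nor Hhip against WT (-0.778) or the mean (-0.803), and Ptch1 in ApcKO minus WT was -0.084; the counts were 1, 6 and 4. With fibroblast markers, Hhip against WT was -1.041 and did not pass, with counts of 8 against WT and 17 against the mean. Both covariates were chosen after seeing the data. Hhip against WT also missed the threshold with arrays centred on their medians (-1.120), in a fit of the groups compared alone (-1.145) and over all transcript clusters (-1.145). Counts against ApcKO were 8 after centring, 65 with array weights and 23 among genes above the median level; those against WT were 16, 45 and, in the groups compared alone, 7. Those against the mean were 34 after centring, 120 with array weights and 46 with Xist as a covariate. The cause of these changes was not tested.

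The code digits were not taken to pair the arrays in the main model, and what the digit stands for is not given. Between genotypes, deviations of same-digit arrays were more alike on average, with a mean r of 0.12 (12 of 20 pairs over 0.1). Those of other arrays had a mean r of -0.01 (44 of 171), and 5 of 24 arrays correlated best with their own digit. A digit effect shared by the arrays is therefore possible. With the digit as a replicate block, Hhip against WT was -1.147 (limma adjusted p = 0.0691), the counts against ApcKO, WT and the mean were 16, 14 and 73, and no other call of the 3 genes changed.

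Of the correlations, Ptch1 with Hhip in IhhKO_ApcKO missed the threshold without the arrays farthest from the median (0.963), and for the pooled deviations it did so there (0.396) and by rho (0.543). After centring arrays, Gli1 passed with Ptch1 (0.725) and with Hhip (0.574) in the pooled deviations. In WT, rho was -0.071 for Gli1 with Ptch1 and -0.214 for Gli1 with Hhip, which was -0.188 without the farthest arrays. Given the epithelial marker mean, Ptch1 with Hhip was -0.031 in WT and -0.217 in ApcKO, and Gli1 with Hhip -0.060 in ApcKO. The ratios between genes passed in no fit. When an array was left out, Ptch1 over Hhip ran from -0.300 to -0.059 for ApcKO minus WT and from -0.227 to -0.034 for IhhKO_ApcKO minus WT, Gli1 over Hhip from -0.207 to -0.012 for ApcKO minus WT, Gli1 over Ptch1 ran from -0.058 to 0.069 against ApcKO, Gli1 over Hhip from -0.015 to 0.145 against ApcKO and from -0.125 to 0.045 against WT, and Ptch1 over Hhip from -0.067 to 0.165 against ApcKO.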

Other observations

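The genes beside Gli1, Ptch1 and Hhip on the chromosome were looked at after Fancc had come up among the most alike genes. In the RefSeq order Fancc is the nearest measured gene on the lower-coordinate side of Ptch1, with 11 kb between them. Fancc fell by 0.65 in IhhKO_ApcKO against ApcKO (SE 0.10; limma adjusted p = 0.00582), and its r with Ptch1 over 24 arrays was 0.93, a description that includes the genotype difference. Gm16907, 211 kb from Ptch1 on the same side, fell by 0.73 (SE 0.11; 0.00502; r = 0.86). Without B9 both passed (1.93e-05 and 0.0029), and neither did with the code letter as a random block (0.537 and 0.15) or with the smooth muscle marker mean as a covariate (0.887 and 0.597). Mir3074-1, which lies between them in the order, differed by -0.62 (SE 0.18; 0.418). On the other side of Ptch1, 1700024I08Rik differed by 0.10 (SE 0.07), Ercc6l2 by -0.18 (SE 0.07; 0.79) and Hsd17b3 by 0.08 (SE 0.05), and none passed.

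The neighbours of the other genes did not pass the test. Arhgap9, which overlaps the end of Gli1 by 0.065 kb, differed by -0.04 (SE 0.06), Inhbe by 0.07 (SE 0.05), R3hdm2 by -0.06 (SE 0.04) and Gm6283 by -0.38 (SE 0.15; limma adjusted p = 0.795). Beside Hhip, Anapc10 differed by -0.10 (SE 0.15) and Gm5909 by -0.05 (SE 0.08). Whether the strand or the placement of probes plays a part in the Fancc and Gm16907 values was not tested.

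The 3 genes were also set against the level of Xist as a term in the model. Xist levels were not balanced between the genotypes. In ApcKO they were 11.24, 11.44 and 11.19 on A9, B4 and B8 and 4.36 to 4.63 on the other arrays. In IhhKO_ApcKO they were 4.54, 4.37 and 4.60 on B9, C5 and C9 and 10.92 to 11.21 on the others. In WT, A1 (7.15) and A8 (9.50) lay between A2, A5 and A6 (4.38 to 4.74) and A3 and A4 (11.14 and 11.22). Whether Xist parts male from female mice here was not tested. The slope of Hhip was -0.069 per log2 unit of Xist (SE 0.025; unadjusted p = 0.0102 by limma), which did not pass over all genes (adjusted p = 1), and those of Gli1 (-0.023, SE 0.017) and Ptch1 (-0.026, SE 0.024) were smaller. With epithelial markers as the term, the slopes were 0.006 for Gli1, -0.114 for Ptch1 and -0.069 for Hhip, and none passed.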
